A study of Rattus norvegicus with 22 samples.

Results

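The genes described here are 10 precursors of secreted neuronal peptides that were chosen by name: Npy, Sst, Vip, Cck, Tac1, Penk, Pdyn, Crh, Vgf and Scg2. They are 10 of the 17172 genes in the count table. Of these, 9 passed the filter on low counts that left 12875 genes for testing, and Npy was listed at 0 counts in every rat. Expression was measured by RNA-seq of the ipsilateral (right) hippocampus of 14 adult male Sprague-Dawley rats of 300 to 375 g. Traumatic brain injury (TBI) was given by moderate lateral fluid percussion, a pressure pulse onto the dura through a craniectomy over the right hemisphere. Sham rats had the same craniectomy, hub and isoflurane anaesthesia without the pulse, so all groups share the surgery. Tissue was taken 1 day after surgery from 2 sham and 4 TBI rats, and 14 days after surgery from 4 sham and 4 TBI rats. Each rat is 1 sample, with the whole hippocampus rolled out of the hemisphere, so that regions and cell types were not separated.

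Neuropeptides are made as long precursors that enter dense-core vesicles, are cut by prohormone convertases at pairs of basic residues, and are released during sustained firing. In the hippocampus somatostatin (Sst), neuropeptide Y (Npy), vasoactive intestinal peptide (Vip) and cholecystokinin (Cck) mark classes of GABAergic interneuron, whereas prodynorphin (Pdyn) is best known from the granule cells of the dentate gyrus and their mossy fibres. Granins such as secretogranin 2 (Scg2) and Vgf are acidic proteins of the same vesicles that help to form them and are themselves cut into peptides. Several of these genes are textbook targets of CREB, which binds the cAMP response element (CRE) in their promoters, and are induced by neuronal activity.

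The table of RefSeq promoters used here (build GRCr8) held 7 of the 10 genes, Npy, Sst, Vip, Tac1, Pdyn, Vgf and Scg2. Cck, Penk and Crh were not in that table. The window of 300 bases reached from 250 before to 50 after the annotated start and was searched on both strands for the CRE (TGACGTCA), its core (TGACG, which every full CRE also holds) and the AP-1 element (TGANTCA), which Fos and Jun proteins bind. The full CRE was found in 3 of the 7 promoters, Sst, Vgf and Scg2, against 1.83% of the 33469 promoters of the same table. The core was found in 5 of 7, those 3 with Vip and Tac1, against 21.2% of all promoters. The AP-1 letters were found in 0 of 7, against 7.33%. Shown here are 150 bases, from 130 before to 20 after the start, of the 3 promoters with a full CRE, of Vip with the core alone, and of Pdyn, the gene with the largest fall at day 1, in which neither was found. Capitals mark the full CRE in Sst (chr11:90461416-90461565, plus strand), Vgf (chr12:25277001-25277150, minus strand) and Scg2 (chr9:88256847-88256996, minus strand), and the core in Vip (chr1:44470350-44470499, plus strand). The Pdyn stretch (chr3:137366484-137366633, minus strand) holds no capitals.
Sst: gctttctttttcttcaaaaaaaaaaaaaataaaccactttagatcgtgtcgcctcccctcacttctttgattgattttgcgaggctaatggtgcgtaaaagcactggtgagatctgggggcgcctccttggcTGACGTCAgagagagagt
Vgf: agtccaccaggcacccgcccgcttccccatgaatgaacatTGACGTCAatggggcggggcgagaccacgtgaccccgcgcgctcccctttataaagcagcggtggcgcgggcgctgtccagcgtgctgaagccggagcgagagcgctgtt
Scg2: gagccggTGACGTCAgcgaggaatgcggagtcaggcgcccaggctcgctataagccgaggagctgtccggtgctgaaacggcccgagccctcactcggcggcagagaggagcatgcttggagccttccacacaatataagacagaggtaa
Vip: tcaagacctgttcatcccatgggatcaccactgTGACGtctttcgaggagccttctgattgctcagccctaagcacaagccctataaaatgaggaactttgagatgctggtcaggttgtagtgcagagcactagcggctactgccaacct
Pdyn: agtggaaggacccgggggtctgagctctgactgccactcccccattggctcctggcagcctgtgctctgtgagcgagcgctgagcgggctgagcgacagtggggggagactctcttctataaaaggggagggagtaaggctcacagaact
The full CRE began 90 bases before the start in Vgf and 123 bases before it in Scg2, and lay at bases 3 to 10 after the annotated start in Sst. A match of letters is a description of the window and not a measured binding site. The genes were chosen by name and several are known CREB targets, so the shares above are no test of enrichment.

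Between 15065540 and 23743703 counts per rat were assigned to genes, and levels are given as CPM, the counts scaled to a library of 1000000 after TMM normalization. CPM does not correct for gene length, so it is compared between rats and not between genes. Differences between rats of one group exceeded counting noise in every group. Markers of choroid plexus, which lies against the hippocampus, summed to between 2024 and 10599 CPM in 3 rats (sham day 1 replicate 1 and TBI day 14 replicates 2 and 3) and to between 111.8 and 239 CPM in the other 11. TBI day 1 replicate 1 had the lowest sum of hippocampal excitatory neuron markers, 723 CPM against 1566 to 1925 CPM in the other 3 TBI rats of day 1. Results are therefore also given without these rats where that changes a call or a direction.

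Prodynorphin, the precursor of the dynorphins, which act on kappa opioid receptors, was the only one of the 9 genes to pass the test between TBI and sham rats at day 1. Its level was 46.7 and 126.7 CPM in the 2 sham rats. In the 4 TBI rats it was 1.97, 36.7, 20.5 and 31.7 CPM. Every TBI rat lay below both sham rats, although the sham rats were themselves far apart and TBI replicate 1 held only 38 Pdyn reads. Pdyn fell 3.80-fold (log2 fold change −1.93 ± 0.60 SE, adjusted p = 0.0377, edgeR quasi-likelihood test). In bulk tissue fewer cells that express a gene and less of its RNA per cell cannot be told apart. The call for Pdyn rested on few rats. Without sham day 1 replicate 2 the log2 fold change was −1.03 (adjusted p = 0.478), and without TBI day 1 replicate 3 it was −1.88 (adjusted p = 0.0756, both edgeR). Leaving out sham day 14 replicate 2 or TBI day 14 replicate 1, which enter only through the shared spread, gave adjusted p = 0.0513 and 0.0506 (edgeR), and a fit to the 6 rats of day 1 alone gave 0.207. Without TBI day 1 replicate 1 the log2 fold change was −1.55 (adjusted p = 0.00451, edgeR). Without the 3 rats with high choroid plexus markers it was −2.5. That fit kept only replicate 2 of the day 1 sham rats, the one with the higher Pdyn level (126.7 CPM).

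At day 14 Pdyn was 72.2, 90.3, 77.7 and 107.1 CPM in the 4 sham rats and 88.4, 82.1, 109.7 and 87.2 CPM in the 4 TBI rats. The groups overlapped almost wholly, and the fitted log2 change was 0.08 ± 0.51 (SE, adjusted p = 0.981, edgeR). Pdyn was 4.03-fold higher in TBI rats at day 14 than in TBI rats at day 1 (log2 fold change 2.01 ± 0.53 SE, adjusted p = 0.00816, edgeR), and every TBI rat of day 14 lay above every TBI rat of day 1. This call was kept when any single rat was left out. The 2 sham groups had nearly the same mean, 86.7 ± 56.6 CPM (SD, n = 2) and 86.8 ± 15.5 CPM (SD, n = 4). The test of whether the TBI effect itself differed between the days gave −2.01 ± 0.80 (log2, SE, adjusted p = 0.18, edgeR) and did not pass. It passed without TBI day 1 replicate 1 (−1.63, adjusted p = 0.0383, edgeR). Over all fits with a single rat left out the value ran from −2.56 to −1.12.

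Proenkephalin (Penk), the precursor of the enkephalins and the other opioid precursor of the set, passed in neither direction at day 1. Penk was 34.7 and 49.1 CPM in the sham rats and 23.2, 46.6, 27.3 and 78.0 CPM in the TBI rats of day 1. The highest value of all 14 rats was that of TBI day 1 replicate 4, and the 2 groups overlapped. The log2 fold change of 0.06 ± 0.37 (SE, adjusted p = 0.922, edgeR) took the other sign without TBI replicate 4 (−0.37), by limma-voom (−0.079) and without the 3 choroid-rich rats (−0.18). At day 14 Penk was 29.8, 42.4, 45.7 and 46.8 CPM in sham rats. It was 26.3, 30.9, 22.8 and 22.4 CPM in TBI rats. Only TBI replicate 2 lay above the lowest sham rat. The log2 fold change was −0.69 ± 0.30 (SE, unadjusted p = 0.0396, adjusted p = 0.336, edgeR), and it passed only in a fit to the 8 rats of day 14 alone (−0.65, adjusted p = 0.0225).

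Reads of the 2 opioid precursors were also set against each other within each rat, a ratio that no library scaling can change and that was chosen after these values had been seen. The 2 sham rats of day 1 had 0.744 and 0.387 Penk reads per Pdyn read, and the 4 sham rats of day 14 had between 0.413 and 0.588. In the 4 TBI rats of day 1 the ratio was 11.8, 1.27, 1.33 and 2.46, so that Penk reads outnumbered Pdyn reads in all 4 of them and in none of the other 10 rats. In TBI rats of day 14 it was 0.298, 0.377, 0.208 and 0.257, and all 4 lay below both sham groups. The ratio is of read counts that are not corrected for gene length, and no test was made of it.

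**Figure D1:**
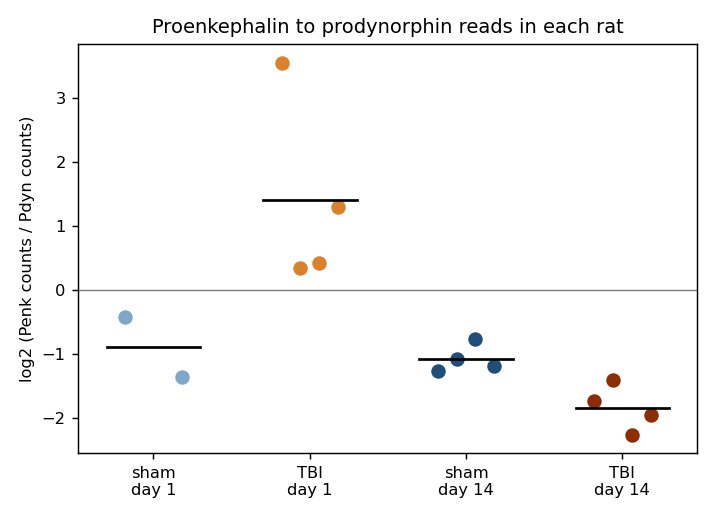
Each point is 1 rat, the vertical axis is log2 of Penk counts over Pdyn counts, and the bars are group means of that log ratio in the 2 sham and 4 TBI rats of day 1 and the 4 sham and 4 TBI rats of day 14. All 4 TBI rats of day 1 lie above 0, with replicate 1 at 3.56, and all other rats lie below it, between −2.27 and −0.43.

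Somatostatin, made by dendrite-targeting interneurons of stratum oriens and the dentate hilus, had 112.4 and 138.3 CPM in the sham rats of day 1. It had 54.8, 71.4, 81.7 and 118.4 CPM in the TBI rats of day 1. In 3 of the 4 TBI rats Sst was below both sham rats, and replicate 4 lay between them. The log2 fold change of −0.62 ± 0.25 (SE, unadjusted p = 0.0244) did not pass after adjustment (adjusted p = 0.0905, edgeR). It passed without TBI day 1 replicate 4, the highest TBI rat (−0.85, adjusted p = 0.0113, edgeR). Without TBI replicates 1, 2 or 3 it did not pass (−0.47, −0.56 and −0.62, adjusted p = 0.158, 0.165 and 0.134, edgeR). Without sham day 1 replicate 2 it was −0.46, and a fit to the rats of day 1 alone gave adjusted p = 0.265 (edgeR). At day 14 Sst was 104.8, 111.5, 145.7 and 159.4 CPM in sham rats and 88.4, 119.0, 103.3 and 115.4 CPM in TBI rats. These groups overlapped, and TBI rats stood at −0.29 ± 0.21 on the log2 scale (SE, adjusted p = 0.67, edgeR).

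Vip, which marks interneurons that mainly inhibit other interneurons, differed between the days and passed against sham rats of the same day at neither. Vip was 12.6 and 8.71 CPM in sham rats and 7.31, 7.67, 9.40 and 6.80 CPM in TBI rats at day 1. It was 18.4, 14.8, 18.6 and 20.6 CPM in sham rats and 12.6, 20.2, 15.7 and 16.7 CPM in TBI rats at day 14. The 4 TBI rats of day 1 all lay below the 4 TBI rats of day 14, in which Vip was 2.09-fold higher (log2 fold change 1.06 ± 0.18 SE, adjusted p = 0.000395, edgeR), and this call held whichever rat was left out (0.94 to 1.17). Sham rats differed in the same direction. Vip was 1.70-fold lower in sham rats of day 1 than of day 14 (log2 fold change −0.77 ± 0.22 SE, adjusted p = 0.0301, edgeR). That call was lost without sham day 1 replicate 2 (−0.52, adjusted p = 0.253, edgeR) and without sham day 14 replicates 1 or 4 (adjusted p = 0.0604 and 0.0757, edgeR). Against sham rats of the same day the log2 fold change in TBI rats was −0.45 ± 0.22 at day 1 (SE, adjusted p = 0.158) and −0.15 ± 0.18 at day 14 (SE, adjusted p = 0.842, edgeR). The days of surgery and collection are not given for each rat, so a difference between days and one between batches cannot be told apart.

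Cholecystokinin, which marks a class of basket cell and is also made by some pyramidal cells, had group means between 204.1 and 268.8 CPM. Cck was 295.0 and 165.8 CPM in sham rats and 249.9, 263.6, 321.8 and 239.9 CPM in TBI rats at day 1. At day 14 it was 165.4, 258.3, 227.1 and 249.1 CPM in sham rats and 183.1, 209.6, 232.4 and 191.3 CPM in TBI rats. Groups overlapped at both days. The log2 fold change was 0.22 ± 0.22 at day 1 (SE, adjusted p = 0.513), with the other sign without sham day 1 replicate 2 (−0.13), and −0.14 ± 0.18 at day 14 (SE, adjusted p = 0.865, edgeR).

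Npy was listed at 0 counts in all 14 rats, as were 2170 genes of the table. Npy is a common transcript of hippocampal interneurons, and whether its reads could be counted with the gene models used could not be told from the files. If they could, a count of 0 allows a level of up to 3 counts, which is between 0.126 and 0.199 CPM in these libraries. Other genes that neurons use widely were also near 0, Eno2 with at most 0.721 CPM and Pcsk1n with at most 0.811 CPM in any rat. Genes for 3 Npy receptors were measured in the same rats. Their log2 fold changes at day 1 were −0.53 for Npy1r (adjusted p = 0.172), −0.84 for Npy2r (adjusted p = 0.452) and −0.98 for Npy5r (adjusted p = 0.134, edgeR), and none passed at either day. Npy2r, a receptor of axon terminals, had 0 counts in TBI day 1 replicate 1 and between 87 and 283 counts in the other 13 rats. Nothing is said here of Npy expression beyond the listed value.

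Tac1, the precursor of substance P and neurokinin A, and Crh, the stress peptide corticotropin-releasing hormone, were counted by few reads, 5 to 137 per rat for Tac1 and 1 to 53 for Crh. Tac1 was 3.45 and 2.21 CPM in sham rats and 0.259, 2.92, 3.21 and 4.25 CPM in TBI rats at day 1. At day 14 it was 5.83, 5.29, 5.90 and 7.46 CPM in sham rats and 1.86, 4.39, 3.83 and 4.43 CPM in TBI rats. Every TBI rat of day 14 was below every sham rat of day 14, yet the fitted log2 fold change of −0.75 ± 0.48 (SE, adjusted p = 0.618, edgeR) did not pass. At day 1 it was −0.08 ± 0.60 (SE, adjusted p = 0.943, edgeR), and it was 0.29 without TBI replicate 1. Crh ranged from 0.0519 CPM (1 read) to 2.88 CPM over all rats. Its log2 fold changes were −0.26 ± 0.71 at day 1 (SE, adjusted p = 0.831) and 0.10 ± 0.58 at day 14 (SE, adjusted p = 0.98, edgeR). Both Crh values changed sign when single rats were left out.

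Secretogranin 2, the precursor of secretoneurin, was 328.9 and 684.1 CPM in the sham rats of day 1. It was 59.6, 284.1, 313.4 and 406.2 CPM in the TBI rats of day 1. TBI replicate 4 lay above the lower sham rat, and the other 3 TBI rats lay below both. The log2 fold change of −0.93 ± 0.47 (SE, adjusted p = 0.175, edgeR) did not pass, and it was −0.31 without sham day 1 replicate 2 and −0.60 without TBI day 1 replicate 1. At day 14 Scg2 was 440.0, 622.6, 526.7 and 697.0 CPM in sham rats and 552.6, 514.2, 442.5 and 483.6 CPM in TBI rats, which is −0.20 ± 0.39 on the log2 scale (SE, adjusted p = 0.926, edgeR). All 4 TBI rats of day 14 lay above all 4 of day 1. The difference between them, 0.91 ± 0.40 on the log2 scale (SE, adjusted p = 0.0815, edgeR), passed by limma-voom with all rats (1.21, adjusted p = 0.0438), and in edgeR without TBI day 1 replicate 1 (0.57, adjusted p = 0.0478) or replicate 4 (1.18, adjusted p = 0.0396).

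Vgf is a granin-like precursor whose peptides act in energy balance and synaptic plasticity. It was 149.4 and 158.4 CPM in sham rats and 98.9, 202.3, 187.1 and 213.6 CPM in TBI rats at day 1. The TBI rats fell on both sides of the sham rats, 3 of them above and replicate 1 below, and the fitted value was 0.19 ± 0.27 (log2, SE, adjusted p = 0.654, edgeR). At day 14 Vgf was 166.7, 205.6, 155.7 and 253.9 CPM in sham rats and 131.9, 187.7, 136.4 and 171.4 CPM in TBI rats (log2 fold change −0.32 ± 0.22 SE, adjusted p = 0.651, edgeR).

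**Figure D2:**
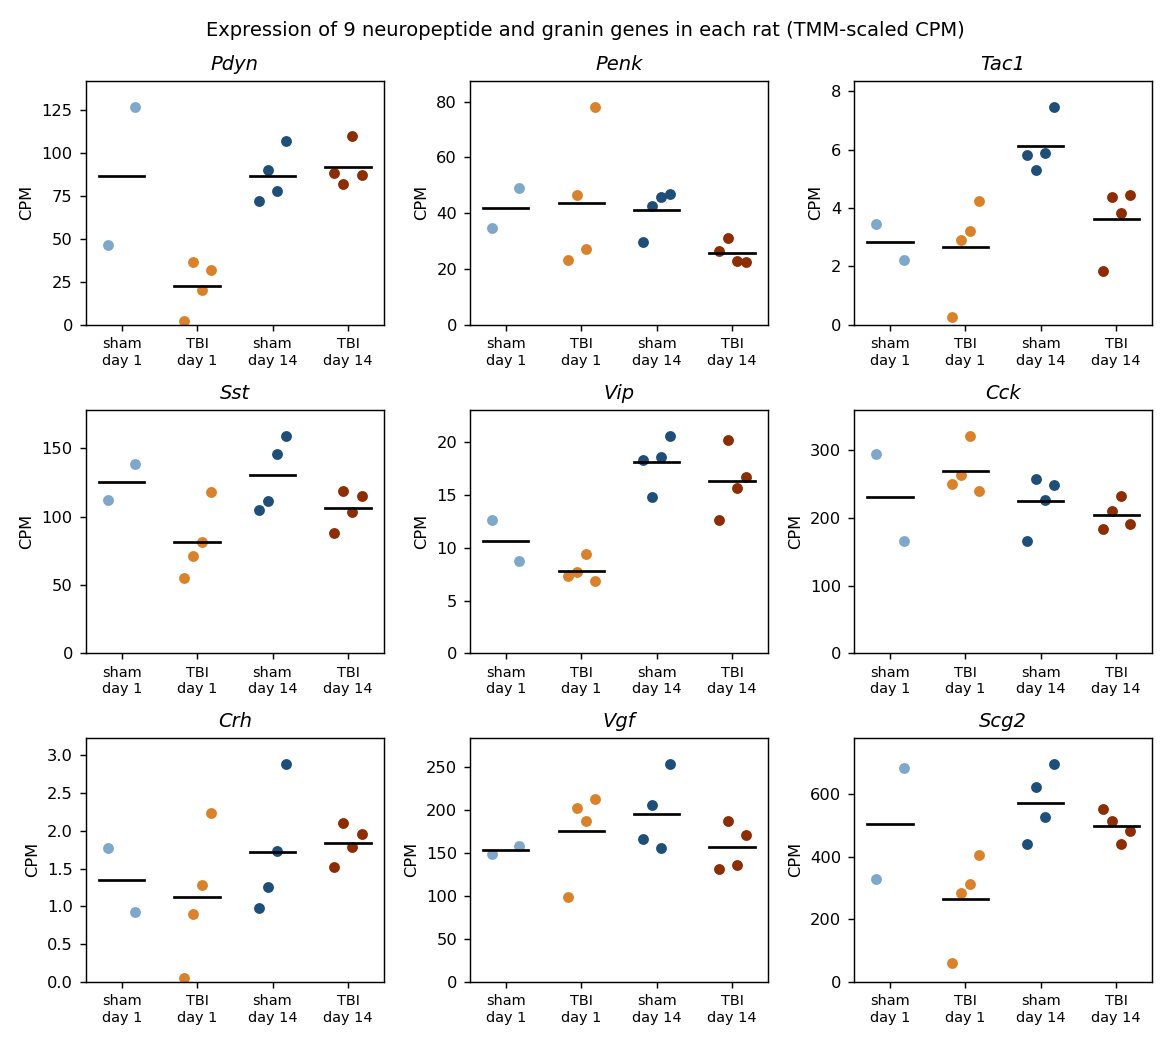
Each point is the level in 1 rat in TMM-scaled CPM, each panel is 1 gene with its own axis from 0, and bars are group means (2 sham and 4 TBI rats at day 1, 4 sham and 4 TBI rats at day 14). Pdyn in TBI rats of day 1 (1.97 to 36.7 CPM) lies below all other groups, Vip is low in both groups of day 1, and Penk in TBI rats of day 14 lies between 22.4 and 30.9 CPM.

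Over the 9 genes tested, 0 were higher and 1 was lower in TBI than in sham rats at day 1 (edgeR, adjusted p under 0.05), where 11.2% of all 12875 genes were higher and 7.93% lower. The median log2 fold change of the 9 genes was −0.26, beside −0.02 for all genes. At an unadjusted p under 0.05, 0 were higher and 2 lower. The share of all genes at this unadjusted threshold was not counted in any comparison, so these counts have nothing to stand beside. The groups did not overlap for 1 gene, Pdyn, and every TBI rat was below every sham rat for 14.1% of all genes. At day 14, 0 were higher and 0 lower, where 4.07% of all genes were higher and 0.365% lower. At an unadjusted p under 0.05 there were 0 and 1. limma-voom and DESeq2 also called 0 of the 9 at day 14. Here 1 gene, Tac1, had every TBI rat below every sham rat, as did 5.86% of all genes, and the median log2 fold change was −0.20 beside −0.03. The difference between the TBI effects of the days passed for 0 of 9 in either direction by edgeR, limma-voom and DESeq2 alike (1 lower at an unadjusted p under 0.05), where 2.24% of all genes passed with a higher and 1.44% with a lower value.

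**Figure D3:**
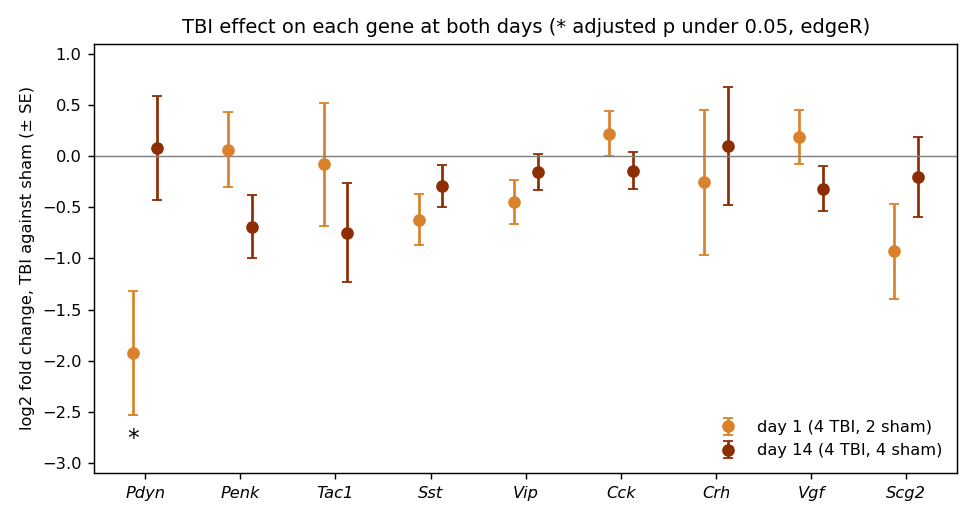
The vertical axis is the log2 fold change of TBI against sham rats, with bars of 1 SE, for each gene at day 1 (4 TBI and 2 sham rats) and day 14 (4 TBI and 4 sham rats). Only Pdyn at day 1 (−1.93) carries the star for an adjusted p under 0.05, and its value at day 14 is 0.08.

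Comparisons across days used the same rats again and so are not independent of those above. In TBI rats, 2 of the 9 genes (Pdyn and Vip) were higher at day 14 than at day 1 and 0 were lower, where 17.6% of all genes were higher and 21.9% lower. Penk and Cck had negative values in this comparison, −0.78 ± 0.30 for Penk (log2, SE, adjusted p = 0.0552) and −0.40 ± 0.18 for Cck (SE, adjusted p = 0.0934, edgeR). The TBI rats of the 2 days did not overlap for 4 of the 9 genes. Of these, Pdyn, Vip and Scg2 were higher at day 14 and Cck was lower. How often this held over all genes was not counted. Between sham rats of the 2 days, 0 genes were higher and 1 (Vip) was lower at day 1, where 11.3% of all genes were higher and 7.88% lower. Set against the 4 sham rats of day 14, TBI rats of day 1 had 4 of 9 genes lower and 0 higher, where 21.0% of all genes were lower and 25.0% higher. These 4 were Pdyn (−1.93 ± 0.53 SE, adjusted p = 0.00842), Vip (−1.22 ± 0.18 SE, adjusted p = 9.2e-05), Scg2 (−1.10 ± 0.40 SE, adjusted p = 0.0336) and Sst (−0.68 ± 0.21 SE, adjusted p = 0.0153, edgeR, log2). The Scg2 and Sst calls were lost without sham day 14 replicate 4 (adjusted p = 0.0823 and 0.0545, edgeR), and that for Scg2 also without sham day 14 replicate 2 or TBI day 1 replicate 2 (0.0682 and 0.0602). This comparison mixes the injury with the day.

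A single rat held many of the low values. TBI day 1 replicate 1 had the lowest level of all 14 rats for 6 of the 9 genes (Sst, Tac1, Pdyn, Crh, Vgf and Scg2), while it was lowest for 19.3% of all genes tested. At the other end, sham day 14 replicate 4 was highest for 6 of 9 (Sst, Vip, Tac1, Crh, Vgf and Scg2) and for 6.22% of all genes. Relative to the mean of the sham rats of day 14, TBI day 1 replicate 1 stood at −5.4 for Pdyn, −4.1 for Tac1, −3.4 for Crh and −3.2 for Scg2 on the log2 scale. For Cck it stood at 0.2. The other 3 TBI rats of day 1 stood between −2.1 and −1.2 for Pdyn and between −1.0 and −0.5 for Scg2. The same rat had the lowest summed level of the GABAergic interneuron markers too (600 CPM against 737 to 883 CPM in the other 3). Whether its low peptide levels follow from the makeup of the piece of tissue was not tested.

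**Figure D4:**
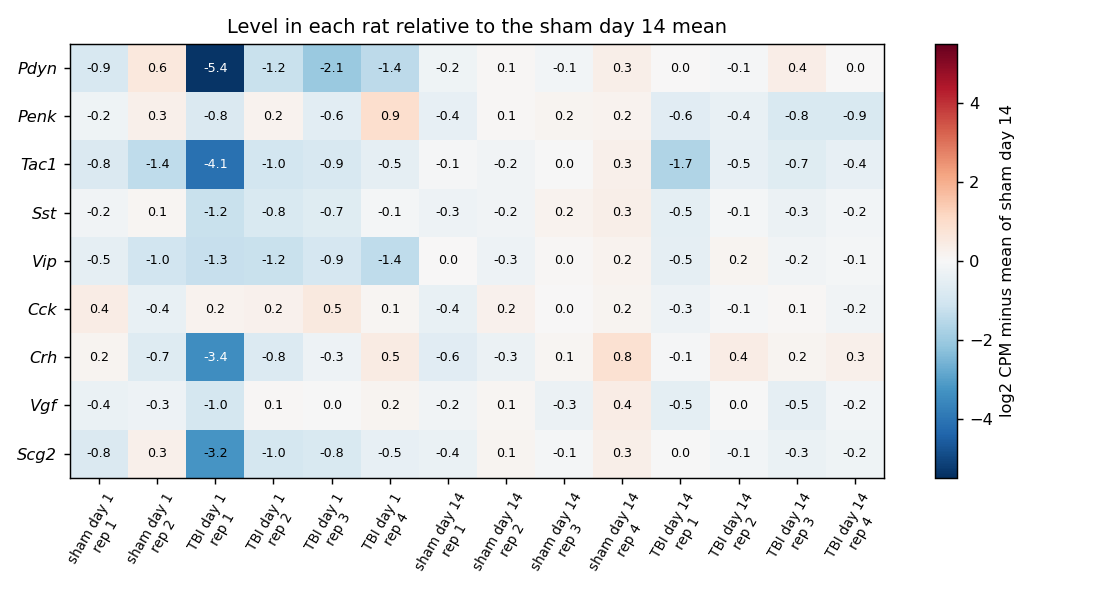
Each cell is the log2 CPM of 1 gene in 1 rat minus the mean of the 4 sham rats of day 14, with blue for lower and red for higher values. The column of TBI day 1 replicate 1 holds the lowest values, down to −5.4 for Pdyn, and Vip is below 0 in all 6 rats of day 1.

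The genes whose levels over the 14 rats were most like those of a member give a description of these patterns, in which all points share the same libraries and the same 4 groups. Closest to Pdyn was Il16 (Pearson r = 0.98), followed by C1ql2 (r = 0.98), a synaptic protein of dentate granule cells and their mossy fibres, and Lppr1 (r = 0.98). Without TBI day 1 replicate 1 the values for Il16, C1ql2 and Lppr1 were 0.93, 0.93 and 0.91 over 13 rats. By Spearman's rho over all 14 rats they were 0.64, 0.89 and 0.78. Closest to Scg2 were Elmod1 (r = 0.99), Lrrn3 (r = 0.98) and the potassium channel gene Kcna4 (r = 0.98). Closest to Vip were Tspan3 (r = 0.97), the synaptic vesicle protein gene Syngr3 (r = 0.97) and Mmp24 (r = 0.96). Closest to Tac1 were Pigx (r = 0.96), Ggh (r = 0.92) and Emb (r = 0.91), with 0.84, 0.73 and 0.58 without TBI day 1 replicate 1. Closest to Crh were Emb (r = 0.93), Cnih2 (r = 0.91) and Tm2d2 (r = 0.90), with 0.58, 0.66 and 0.70 without that rat. Penk, Cck and Vgf had no gene above r = 0.84, 0.88 and 0.83, those being Wdr44, Cdc34 and Tmem185b, and the closest to Sst was Serpini1 (r = 0.93). Without TBI day 1 replicate 1 the values for Wdr44, Cdc34, Tmem185b and Serpini1 were 0.83, 0.88, 0.68 and 0.87.

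Genes that act with these peptides were described from lists, whose counts stand beside 11.2% of all genes higher and 7.93% lower at day 1, and 4.07% and 0.365% at day 14. Among 14 measured genes of peptide processing and dense-core vesicles, 6 were lower and 0 higher in TBI rats at day 1 (edgeR), and their median log2 fold change was −0.72. Both main prohormone convertases were among them. Pcsk1 was 3.29 and 8.67 CPM in sham rats and 0.830, 2.19, 2.11 and 2.86 CPM in TBI rats (log2 fold change −1.57 ± 0.40 SE, adjusted p = 0.0146, edgeR). Pcsk2 was 216.4 and 290.8 CPM in sham rats and 55.5, 152.1, 129.4 and 127.6 CPM in TBI rats (−1.13 ± 0.27 SE, adjusted p = 0.00985, edgeR). For both, each TBI rat lay below each sham rat. The others were Cadps (−0.98), which primes these vesicles for release, the carboxypeptidase Cpd (−0.87), the convertase Pcsk5 (−0.83) and the vesicle GTPase Rab3a (−0.79). Rab3a was 1059 and 1536 CPM in sham and 419 to 919 CPM in TBI rats of day 1. It was 594 to 826 CPM in sham rats of day 14, a range that those TBI rats overlapped. For Pcsk1, Pcsk2, Pcsk5, Cpd and Cadps, every TBI rat of day 1 was also below every sham rat of day 14. How often this held over all genes was not counted, here or for the lists below. All 6 calls were lost in a fit to the rats of day 1 alone. With single rats left out the log2 fold change ran from −2.11 to −0.71 for Pcsk1, −1.33 to −0.89 for Pcsk2 and −1.23 to −0.29 for Pcsk5. At day 14, 0 of the 14 genes were higher and 1 was lower, Ptprn (−0.41, adjusted p = 0.0403, edgeR), a membrane protein of dense-core vesicles, with a median of −0.24. Of 5 other granins and granin-like proteins, Scg5 (−0.69, adjusted p = 0.0402, edgeR), the chaperone of Pcsk2, was lower at day 1, and none passed at day 14. Chga, Chgb, Scg3 and Pcsk1n had −0.34, −0.51, −0.45 and 0.14 at day 1 and did not pass in edgeR (adjusted p = 0.203, 0.189, 0.0808 and 0.935). The medians of this list were −0.45 and −0.15.

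Of 17 measured receptors and binding proteins for peptides of the set, 1 was higher and 3 were lower at day 1, and the list had a median of −0.53 (log2). The lower ones were the somatostatin receptors Sstr2 (−1.35 ± 0.29 SE, adjusted p = 0.0048) and Sstr3 (−0.82, adjusted p = 0.0252) and the cholecystokinin receptor Cckbr (−0.71, adjusted p = 0.0331, edgeR). Cckbr in TBI rats of day 1 (10.8 to 16.4 CPM) overlapped the sham rats of day 14 (11.0 to 16.8 CPM). Sstr2 and Sstr3 in TBI rats of day 1 lay below every sham rat of day 14. The higher one was C3ar1, the complement C3a receptor, to which a Vgf peptide also binds and which microglia express. It was 4.20 and 2.67 CPM in sham rats and 15.5, 26.9, 23.6 and 23.1 CPM in TBI rats (2.70 ± 0.36 SE, adjusted p = 0.00017, edgeR). At day 14 C3ar1 was again higher (1.94, adjusted p = 0.000578) and Sstr1 was lower (−0.65, adjusted p = 0.046, edgeR), with a median of −0.26. Of 6 microglial markers, 2 were higher and 1 was lower at day 1 and 6 were higher at day 14. The lower one was P2ry12 (−0.88, adjusted p = 0.019, edgeR). Its call was lost in a fit to the rats of day 1 alone, and its value ran from −1.14 to −0.58 with single rats left out. The summed level of the 6 markers at day 1 was 274.8 to 461.2 CPM in sham and 546.1 to 640.4 CPM in TBI rats. At day 14 it was 310.8 to 393.8 CPM in sham and 745 to 1367 CPM in TBI rats.

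Of 21 other neuropeptide precursors measured, 3 were higher and 2 lower at day 1, with a median of −0.06, shares near those of all genes (11.2% and 7.93%). Galanin (Gal), an inhibitory peptide that injured neurons are known to induce, was 2.4 and 1.8 CPM in sham rats and 6.38, 15.7, 15.9 and 10.7 CPM in TBI rats (2.55 ± 0.38 SE, adjusted p = 0.000387, edgeR). Trh, the precursor of thyrotropin-releasing hormone, was 1.67 and 1.38 CPM in sham rats and 22.6, 35.3, 6.01 and 57.6 CPM in TBI rats (4.31 ± 0.75 SE, adjusted p = 0.00138, edgeR). All TBI rats were above both sham rats for both genes, TBI replicate 1 included, in which 6 of the 9 described genes were at their lowest. Both calls were kept whichever rat was left out. Calcb, a calcitonin gene-related peptide precursor counted by 6 to 69 reads, was also higher (2.20, adjusted p = 0.0143, edgeR). Nmb, the neuromedin B precursor (−2.12, adjusted p = 0.0312), and Adcyap1, the precursor of the Vip-related peptide PACAP (−1.33, adjusted p = 0.0416, edgeR), were lower. At day 14, 0 were higher and 1 was lower, Calca (−1.78, adjusted p = 0.038, edgeR), with a median of 0.05.

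Activity-regulated genes split at day 1, with 4 of 16 higher and 4 lower and a median of −0.18. The transcription factor genes Atf3 (4.29, adjusted p = 0.000339), Fos (2.03, adjusted p = 0.0006), Junb (0.80, adjusted p = 0.00817) and Crem (0.80, adjusted p = 0.00571, edgeR) were higher. Arc (−1.79, adjusted p = 0.00124), Egr1 (−1.36, adjusted p = 0.00873), Egr4 (−1.24, adjusted p = 0.00364) and Nr4a1 (−1.02, adjusted p = 0.00213, edgeR) were lower. Egr1 was 118.5 and 194.0 CPM in sham and 27.5 to 79.5 CPM in TBI rats of day 1. It was 43.2 to 72.7 CPM in sham rats of day 14, a range that those TBI rats overlapped. Arc, Egr4 and Nr4a1 in TBI rats of day 1 lay below every sham rat of day 14. At day 14 1 was higher, Atf3 (1.71, adjusted p = 0.0486, edgeR), and 0 were lower, with a median of −0.10. Without sham day 1 replicate 2, 9 of the 24 calls in these 5 lists at day 1 were left. Among the named genes this rat ended the calls for Adcyap1, Nmb, Calcb, Scg5, all 6 processing genes, Sstr2, Sstr3, Egr1, Junb and Crem. The calls for Calcb, Nmb and Sstr3, and that for Cckbr, were also lost without sham day 1 replicate 1, the rat with high choroid plexus markers. Those for Adcyap1 and Rab3a were lost in 10 of 14 fits with 1 rat left out, that for Scg5 in 6, that for Cadps in 5 and that for Nmb in 4. At day 14 the calls for Calca and Ptprn were lost in 7 of 14 such fits and those for Sstr1 and Atf3 in 9, and C3ar1 kept its call in all of them.

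**Figure D5:**
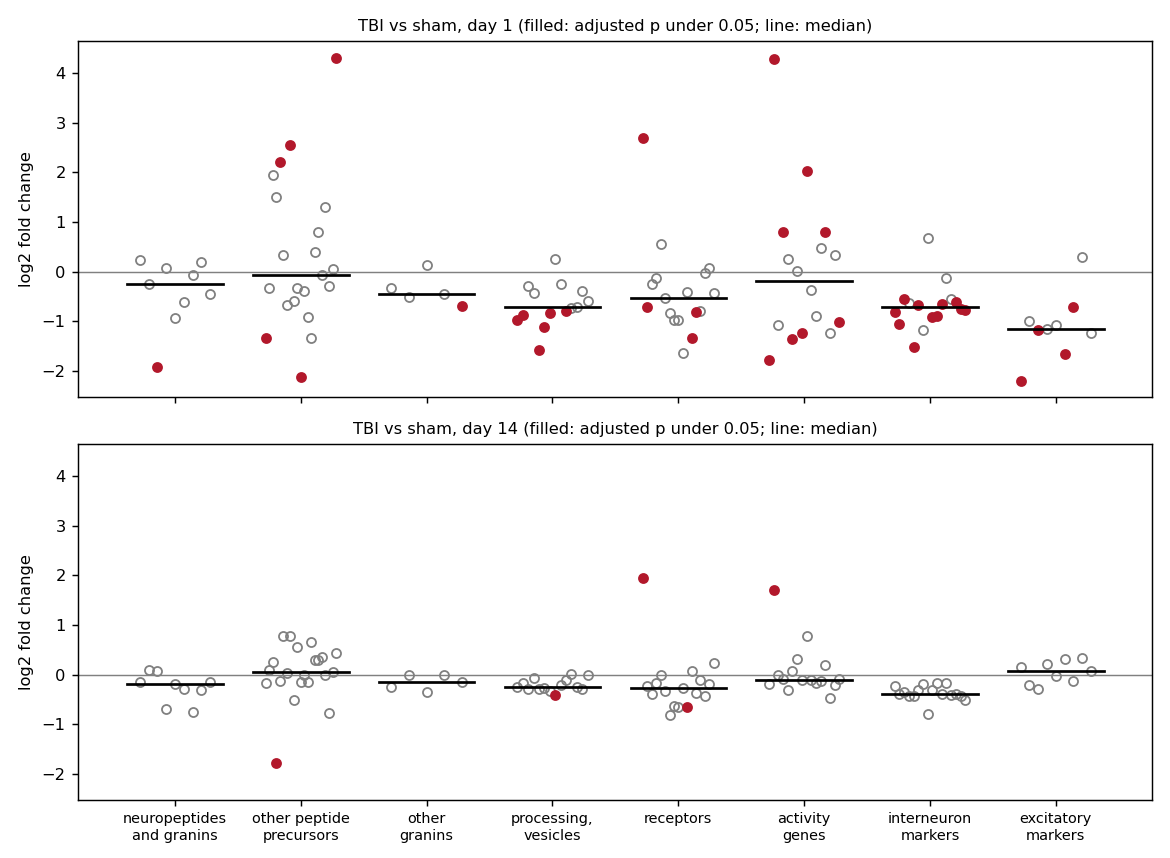
Each point is the log2 fold change of 1 tested gene, TBI against sham rats, at day 1 (upper panel) and day 14 (lower panel), grouped by list, with filled points for an adjusted p under 0.05 and bars for medians. The medians of the processing list and the interneuron markers at day 1 are both −0.72, and at day 14 they are −0.24 and −0.40.

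Markers of the cells that make these peptides moved too. Their counts stand beside 11.2% of all genes higher and 7.93% lower at day 1, and 4.07% and 0.365% at day 14. Of 16 GABAergic interneuron markers that are not peptides, 11 were lower and 0 higher in TBI rats at day 1 (edgeR), and the median of the 16 was −0.72 on the log2 scale. Their summed level was 1069 to 1601 CPM in sham and 600 to 883 CPM in TBI rats, without overlap. Without sham day 1 replicate 2, 9 of these 11 calls were lost. At day 14, 0 of 16 passed in either direction (edgeR), with a median of −0.40 and 16 negative values, and the sums were 1223 to 1569 CPM in sham and 1052 to 1112 CPM in TBI rats. Of 9 tested markers of hippocampal excitatory neurons 4 were lower and 0 higher at day 1, with a median of −1.16. They were the granule cell genes C1ql2 (−2.20) and Prox1 (−1.66), the kainate receptor subunit gene Grik4 (−1.19) and the glutamate transporter gene Slc17a7 (−0.72). The sums were 2272 to 2667 CPM in sham and 723 to 1925 CPM in TBI rats at day 1, and 3114 to 3633 and 3126 to 3638 CPM at day 14, where none passed. Of these 4 calls 3 were lost without sham day 1 replicate 2. Of 10 markers shared by all neurons, 2 were lower at day 1 and 0 at day 14, with medians of −0.72 and −0.23, and both calls were lost without sham day 1 replicate 2. The sums of these 10 markers were 9689 to 13065 CPM in sham and 4743 to 8203 CPM in TBI rats of day 1. In sham rats of day 14 they were 6107 to 8754 CPM. The part of all these cell markers in the levels of the peptides was not tested.

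Other cell types and neighbouring regions were measured in the same way, and their counts stand beside the same shares of all genes. Of 6 astrocyte markers only Gfap passed, and it was higher at both days (3.10 and 2.06). Of 6 oligodendrocyte markers 2 were lower at day 1, both calls lost without either sham rat of that day, and 0 passed at day 14. Of 8 choroid plexus markers 7 were lower at day 1, each call lost without sham day 1 replicate 1, and 1 was higher at day 14. Of 8 striatal markers 1 was lower at day 1, a call lost without sham day 1 replicate 1, and 0 passed at day 14, with sums of 129.1 to 280.1 CPM over all rats, a region in which Penk, Pdyn and Tac1 are strongly expressed. Thalamic markers, 4 tested, had 1 higher at each day, Prkcd (1.14 and 1.71). Cortical markers summed to 268.6 to 284.1 CPM in sham and 175.2 to 261.1 CPM in TBI rats of day 1. In sham rats of day 14 the sum was 166.2 to 206.4 CPM. Of 6 cortical markers 2 were lower at day 1. These 2 calls and that for Prkcd at day 1 were lost without sham day 1 replicate 2, and 0 cortical markers passed at day 14. Of 4 tested hypothalamic markers 0 passed at either day, their sums were 1.98 to 14.1 CPM, and Pmch was at 0 in every rat.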

How the data were processed

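RNA was sequenced from the ipsilateral hippocampus of 14 rats with a stranded mRNA kit, in single-end reads of 50 bases. The authors used STAR 2.4.2a for alignment to rn5 and featureCounts 1.5.0 with UCSC gene models for counting, and the deposited values are whole-number counts per gene without normalization. The strand setting of the counting is not given in the sources used here. Per-rat batches are not given in them either. Groups came from the sample labels. The H3K4me3 peak lists (4 files, from 8 ChIP and input samples) name no genes and were not used here. No protein sequences were used, so a planned description of the precursor proteins was not made.

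The quasi-likelihood F-test of edgeR 4.0.16 (R 4.3.3) was run after filterByExpr and TMM scaling, with all 14 rats in 1 model of group means. P-values are two-sided, adjusted by the Benjamini-Hochberg method over 12875 genes, with a threshold of 0.05. The SE is the absolute log2 fold change divided by the square root of F. Levels are TMM-scaled CPM, and log2 CPM uses a prior count of 2. Each replicate is 1 rat, so p-values measure the spread between rats. The 10 genes, the gene lists and the markers were chosen with earlier results of these data known. All 10 genes are named in every main comparison. Of the lists, genes called at day 1 or day 14 are named. The Npy receptors and the granin-like genes Chga, Chgb, Scg3 and Pcsk1n, with Eno2, were not called and were named after their values were seen. Of the likeness, up to 3 genes of the highest Pearson correlation with a mean log2 CPM above 1 are named. Alternatives were limma-voom (limma 3.58.1, the tool of the authors, who mention a correction for batch that is not part of the fits here), DESeq2 1.42.0, RLE factors, no filter, a minimum of 10 counts in every rat, the replicate number as a block, the compared groups alone, and each rat left out. Leaving out the 3 rats with high choroid plexus markers was added after seeing the data. The scripts were tested on simulated data, in which 200 genes were changed 4-fold in TBI rats of day 1. Against sham rats of day 1, edgeR found 174 of them with 10 false calls, limma-voom 174 with 12 and DESeq2 178 with 37. Limits at a count of 0 (3 counts) cover counting error only.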

Additional observations from a re-analysis of the deposited data

Results flagged for a closer look

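Of 27 sets of 4 rats examined (9 genes in the 3 groups of 4), 1 held a rat far from the others. The Tac1 level in TBI day 1 replicate 1 was −1.46 on the log2 CPM scale, where the other 3 rats of the group lay between 1.60 and 2.12. The gap was 0.853 of the range of the group, above Dixon's critical value for 4 samples, and the level rests on 5 reads. Chance alone flags about 1 in 20 such sets. The same rat was also the lowest of its group for Sst, Penk, Pdyn, Crh, Vgf and Scg2, where the gap did not pass this criterion.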

How the results depend on the processing

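Of 54 results (9 genes in 6 comparisons), 8 were called. None of these 8 changed sign under any alternative run, and 4 were lost under at least 1. Where a day 1 sham rat was left out, the other was assumed to vary like the other groups. Crh and Tac1 have no value under the minimum of 10 counts in every rat. The cause of each change below was not tested.

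Genes called lower at day 1 (1 in the report) were 2 with the replicate block and 0 in the compared groups alone, and 0 to 2 with single rats left out. At day 14 (0) there was 1, Penk, in the compared groups alone. From day 1 to day 14 in TBI rats, 2 higher became 3 by limma-voom (with Scg2), 4 with the replicate block and 2 to 4 with rats left out. In that comparison 0 lower became 1 with DESeq2 (Penk), 1 in the compared groups alone (Cck) and 0 to 1 with rats left out. Between sham groups 1 lower (Vip) became 0 with the block (adjusted p = 0.0685, edgeR), 2 in the compared groups alone, and 0 to 2 with rats left out. Against sham day 14 the 4 lower in TBI day 1 became 5 by limma-voom and DESeq2 (with Tac1) and 2 to 5 with rats left out, and Scg2 was lost in the compared groups alone (adjusted p = 0.0547, edgeR). The difference of effects (0 lower) gave 0 to 1. Listed genes called at day 1 (24) were 7 in the compared groups alone and 9 to 31 with rats left out. At day 14 (5) they were 2 by limma-voom, 3 with no filter, 1 with at least 10 counts, 2 with the block, 11 in the compared groups alone, 2 without the choroid-rich rats, and 1 to 7 with rats left out. Of the 27 likeness neighbours, 6 were also among the 3 nearest by Spearman's rho.

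In 15 results, all of them not called, the log2 change took the other sign. For TBI against sham at day 1, Penk was −0.079 by limma-voom, −0.13 with the block, −0.18 without the choroid-rich rats and −0.37 to 0.34 with rats left out. Tac1 was 0.25 without the choroid-rich rats and −0.39 to 0.29 with rats left out, Crh was 0.26 and −0.83 to 0.28, and Cck was −0.13 to 0.69 with rats left out. At day 14, Crh was −0.088 to 0.47. Between sham groups, Cck was −0.0012 by limma-voom, −0.43 without the choroid-rich rats and −0.44 to 0.39 with rats left out. Pdyn was 0.00087 with no filter, 0.0062 in the compared groups alone, 0.55 without the choroid-rich rats and −0.90 to 0.55 with rats left out. Penk was −0.0052 with at least 10 counts and −0.25 to 0.25. Sst was 0.16 with the block, 0.092 without the choroid-rich rats and −0.21 to 0.086. Crh was 0.29 with the block and −0.90 to 0.044, and Scg2 was 0.27 without the choroid-rich rats and −0.80 to 0.26. For TBI day 1 against sham day 14, Penk was −0.055 by limma-voom, −0.012 with the block and −0.35 to 0.30, and Vgf was −0.26 to 0.041. In the difference of effects, Crh was 0.23 without the choroid-rich rats and −0.92 to 0.18, and Vip was 0.11 without them.

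Replicate numbers recur across groups. Over 18 pairs of the same number the correlation of deviations from group means ran from −0.35 to 0.24 (median 0.034, against −0.033 for other pairs), and 3 of 14 rats correlated best with their own number, so the numbers were not taken to pair the rats. The block changed the counts given above, and with it Sst at day 1 passed (−0.87, adjusted p = 0.00634, edgeR).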
